A study of Mus musculus with 12 samples.

Results

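The transcripts described here are those of 35 genes that mark endothelial cells, the cells lining blood and lymph vessels, in stromal vascular cells isolated from adipose tissue of mice. The genes were taken by symbol from the deposited count tables, which list 24422 features, and all 35 were found. All 35 also passed the filter on low counts, which kept 16713 genes for testing. RNA-seq was done on 12 libraries in 4 groups of 3. Every animal carried 1 p21 allele (p21 is the cyclin-dependent kinase inhibitor gene Cdkn1a) with an mCherry cassette. SD mCherry (genotype p21+/mcherry, standard diet, replicates 1, 2 and 3) is compared with HFD mCherry (also p21+/mcherry, but fed a high-fat diet, replicates 15, 17 and 20). In HFD Tert (p21+/mcherry-Tert, high-fat diet, replicates 25, 26 and 27) the p21 promoter also drives mouse Tert, the catalytic subunit of telomerase. In HFD TertCi (p21+/mcherry-TertCi, high-fat diet, replicates 30, 31 and 33) it drives TertCi, which the labels do not spell out and which is known as a catalytically inactive form of Tert. The p21 promoter is not specific to endothelial cells. The series' design text names p21+/- for the control group on high-fat diet and the sample labels name p21+/mcherry; the labels were followed. Age, sex, fat depot and time on diet are not given in the labels, and nothing in them says that replicates came from separate animals, so p-values measure the spread between these libraries, which may in part be technical.

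Endothelial cells hold together through adherens and tight junctions, read shear and soluble signals through receptor kinases and G protein-coupled receptors, and keep their identity through transcription factors of the ETS and SOX families. In adipose tissue they form the dense capillary bed that delivers fatty acids to adipocytes, and this bed grows and is remodelled when fat depots expand. The stromal vascular fraction, left after adipocytes float off a digested depot, contains these cells together with adipose progenitors, mural cells and immune cells. In such bulk samples, more cells of a type and more RNA per cell cannot be told apart.

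The libraries held 16430330 to 19486965 counts. The knock-in feature mCherry_Tert had 0 counts in all 6 libraries labelled mCherry and 33 to 86 counts in the 6 labelled Tert or TertCi. Tert itself had 8 to 78 counts in the former and 131 to 304 in the latter. The libraries fall into a pair of classes by Crisp1, a secretory gene of the epididymis. In 8 libraries Crisp1 lay at 641 to 14780.3 CPM (read counts relative to the scaled library size, comparable between libraries), and in 4 it lay at 0 to 0.529 CPM. Each group held 1 library without Crisp1, namely replicate 2 on standard diet and, on high-fat diet, replicates 20 (mCherry), 27 (Tert) and 31 (TertCi). The summed level of the 11 genes of an epididymis and epithelium list ran from 59.5 to 56761 CPM. Results are therefore given over all libraries and, where they lead, within the Crisp1 classes. These classes do not hold epithelial content level. The summed level of that list was 2046 CPM in HFD mCherry 17, classed with Crisp1, and 3995 CPM in SD mCherry 2, classed without.

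For 18 of the 35 genes RefSeq promoter windows (build GRCm38.p6, 250 bases before to 50 after an annotated start) could be matched, giving 23 windows. The ETS core in its extended forms CAGGAAG or CCGGAAG, searched on both strands, occurred in 10 of the 23 windows (43.5%), and in 22.6% of the 20788 windows of all genes. AACAGGAA, a composite of a forkhead and an ETS core that shares letters with the ETS forms, occurred in 3 windows (13.0%, against 2.42% of all). The GATA form AGATAAG was found in 3 windows (13.0%, against 2.62%) and the SOX forms ACAATG or ACAATA in 6 (26.1%, against 16.8%). The KLF form CCACCC was about as frequent as elsewhere (34.8%, against 34.0%). A match is a run of letters and no evidence of binding. The sequences upstream of the start are shown for 5 genes with large differences in the comparisons below, written 5′ to 3′ on the gene's strand, with the ETS letters on either strand in capitals. Bases in annotated exons at the 3′ end were left out, 11 for Emcn and 27 for Egfl7, so these sequences end before the start. For Adgrf5, Cldn5 and Ednrb 0 bases were left out. Emcn (chr3:137340828-137341066, plus strand) and Egfl7 (chr2:26580833-26581055, plus strand) had the high levels in the Tert and TertCi groups. Cldn5 (chr16:18776597-18776846, plus strand), Ednrb (chr14:103843702-103843951, minus strand) and Adgrf5 (chr17:43360181-43360430, plus strand) had the large diet differences.
Emcn: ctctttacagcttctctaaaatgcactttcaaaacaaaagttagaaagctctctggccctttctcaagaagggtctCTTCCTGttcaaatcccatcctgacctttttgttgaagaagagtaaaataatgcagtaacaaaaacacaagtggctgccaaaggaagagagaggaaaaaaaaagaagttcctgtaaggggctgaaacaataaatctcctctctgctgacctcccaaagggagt
Egfl7: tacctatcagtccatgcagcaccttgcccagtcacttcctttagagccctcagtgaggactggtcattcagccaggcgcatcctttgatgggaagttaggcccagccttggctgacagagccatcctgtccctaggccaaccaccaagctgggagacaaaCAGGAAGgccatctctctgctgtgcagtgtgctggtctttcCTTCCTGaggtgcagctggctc
Adgrf5: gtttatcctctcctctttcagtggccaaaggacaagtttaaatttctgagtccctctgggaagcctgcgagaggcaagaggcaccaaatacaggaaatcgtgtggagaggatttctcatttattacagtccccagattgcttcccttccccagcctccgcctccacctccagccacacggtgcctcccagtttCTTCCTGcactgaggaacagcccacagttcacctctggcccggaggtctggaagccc
Cldn5: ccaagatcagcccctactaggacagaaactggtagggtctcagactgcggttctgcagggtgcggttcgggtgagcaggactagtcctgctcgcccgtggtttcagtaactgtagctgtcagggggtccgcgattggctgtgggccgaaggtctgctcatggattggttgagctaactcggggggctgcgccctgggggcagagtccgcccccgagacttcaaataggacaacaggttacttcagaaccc
Ednrb: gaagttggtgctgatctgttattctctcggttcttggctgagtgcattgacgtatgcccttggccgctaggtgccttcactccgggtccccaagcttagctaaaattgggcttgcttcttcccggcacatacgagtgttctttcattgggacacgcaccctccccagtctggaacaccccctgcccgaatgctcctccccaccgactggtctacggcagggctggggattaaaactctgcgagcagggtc
The windows shown for Emcn and Adgrf5 held 1 match each, that for Egfl7 held 2, and those for Cldn5 and Ednrb held none of these letters. For Adgrf5 and Egfl7 the window with the most matches is shown. A second Adgrf5 window held 0, and the other windows of Egfl7 held 1 and 0.

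As a set, the 35 genes were lowest in SD mCherry. Their median log2 CPM was 5.82, 5.80 and 5.35 in the SD mCherry libraries, 6.32, 7.05 and 7.14 in HFD mCherry, 6.67, 7.03 and 7.81 in HFD Tert, and 6.53, 7.84 and 7.05 in HFD TertCi. No high-fat diet library reached down to the SD mCherry range, and the 3 high-fat diet groups overlapped one another. The 35 genes together took 0.245% to 0.345% of all counts in SD mCherry. Their share was 0.450% to 0.693% in HFD mCherry, and 0.590% to 1.21% and 0.584% to 1.22% in the Tert and TertCi groups. Of the 35, 16 were at their highest in HFD Tert 27 and 14 in HFD TertCi 31, which are the libraries without Crisp1 in those groups, and 22 were at their lowest in SD mCherry 3. The map of levels by library shows the step between diets and the darker columns of those libraries.

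**Figure D1:**
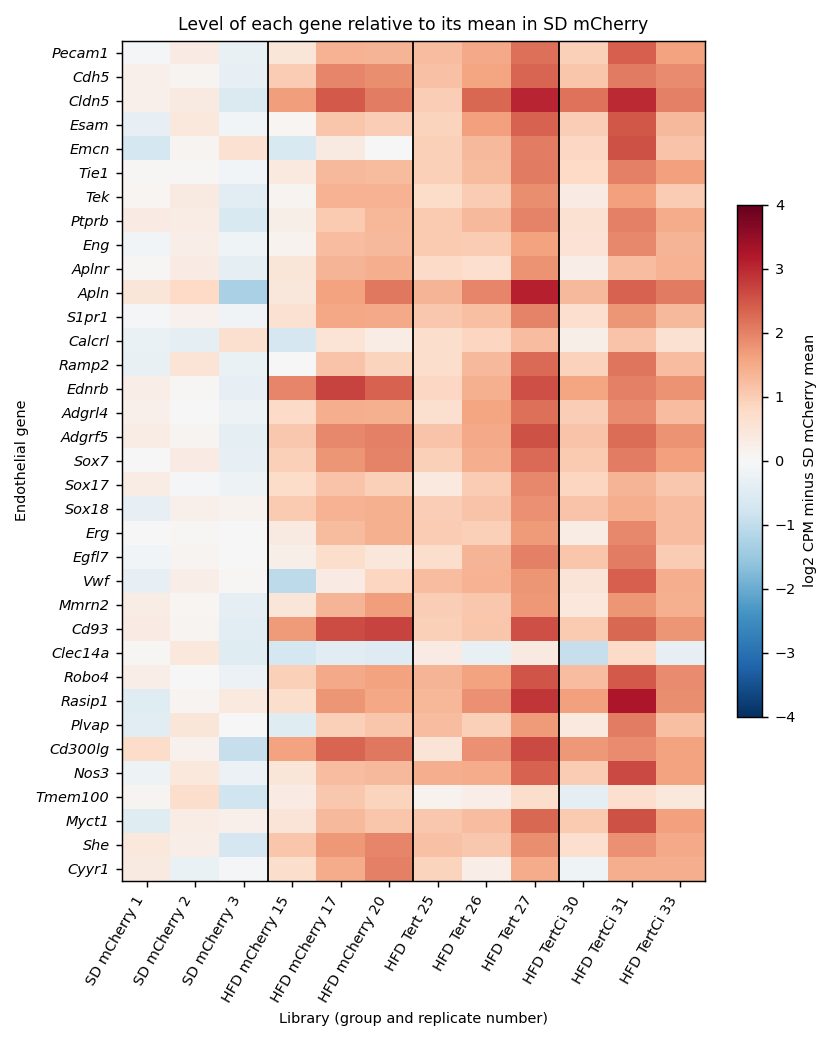
Level of the 35 endothelial genes (rows) in the 12 libraries (columns), as log2 CPM minus the mean of the gene in SD mCherry; red is higher, blue lower. Most rows turn red in all 9 high-fat diet libraries, Clec14a stays near or below 0 in most of them, and Emcn, Vwf and Calcrl turn red mainly in the Tert and TertCi columns.

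The first comparison, HFD mCherry against SD mCherry, asks what high-fat diet does in the control genotype. The median log2 fold change of the 35 genes was 1.12 (−0.08 over all 16713 genes). It was above 0 for 33 of the 35 (45.9% of all genes tested). Cd93 (2.36 ± 0.50 (SE)) and Ednrb (2.36 ± 0.41 (SE)) had the largest log2 fold changes, and Clec14a (-0.61 ± 0.41 (SE)) and Emcn (-0.12 ± 0.50 (SE)) lay below 0. In 23 of the 35 genes every HFD mCherry library was above every SD mCherry library (13.9% of all genes), and in 0 of them was the order the reverse (11.6%). With edgeR's quasi-likelihood test and Benjamini-Hochberg adjustment, 0 of the 35 passed an adjusted p-value of 0.05 (0.0479% of all genes did), the smallest adjusted p-value being 0.0652 for Ednrb. At an unadjusted p-value under 0.05, 24 genes were higher (14.1% of all genes) and 0 lower (10% of all genes). The count of calls depended on the fit. With the mean level of the epididymis and epithelium list as a covariate in edgeR, 14 of the 35 rose (6.82% of all genes) and 0 fell (2.3%). That mean, in log2 CPM, was 9.27 in HFD mCherry 15, the highest of the 12 libraries. It was at most 2.99 in the other HFD mCherry libraries and 3.85 to 8.03 in SD mCherry. The covariate fit may thus give less weight to HFD mCherry 15, and the part of that library in its calls was not tested. DESeq2 without that covariate also called 14 as higher (6.17%), and limma-voom called 0 (22 at an unadjusted p-value under 0.05, 13.7% of all genes). Without HFD mCherry 15, the library of that group with the lowest endothelial level, edgeR called 15 of the 35 as higher (8.76% of all genes), and without HFD Tert 27 it called 10 (3.33%). The median was 1.06 among the 8 libraries with Crisp1 and 1.22 between the 2 libraries without it. Epithelial content still differed within these classes.

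Markers of other cell types also differed in level in this comparison, with 1 of them, an adipocyte marker, called by edgeR. All 10 of 10 macrophage markers had a log2 fold change above 0 in HFD mCherry against SD mCherry (median 2.19), with a summed level of 1115 to 1255 CPM in SD mCherry and 2417 to 6020.0 CPM in HFD mCherry. Of 9 adipose progenitor markers 8 were above 0 (median 1.22; 2536 to 3991 against 6947 to 20591 CPM). Of 10 pericyte and smooth muscle markers 4 were above 0 (median −0.97; 2812 to 18889 against 1933 to 3141 CPM), and of 6 mesothelial markers 1 (median −0.85; 438 to 1329 against 281 to 323 CPM). Of 9 tested epididymis and epithelium genes 3 were above 0 (median −1.91). All 11 genes of that list summed to 3995 to 56761 against 231 to 13783 CPM. Of 7 adipocyte markers 2 were above 0 (median −0.58), of 5 Schwann and nerve markers 0 (−0.70), and of 4 tested skeletal muscle markers 0 (−1.55). Of 6 erythrocyte markers 3 were above 0 (median 0.013), and of 3 tested neutrophil markers 3 (1.63). The part of these cell types in the endothelial values was not tested.

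Among the junction and adhesion genes, 3 of 5 separated the mCherry groups (13.9% of all genes were higher without overlap). The levels of Pecam1, the adhesion molecule CD31 of endothelial borders, were 211, 271 and 176 CPM in SD mCherry, 300.3, 571 and 561 in HFD mCherry, 510.2, 619 and 990.4 in HFD Tert, and 414, 1134 and 661 in HFD TertCi. All 9 high-fat diet libraries lay above the 3 on standard diet. Cdh5, the VE-cadherin of adherens junctions, stood at 190.4, 179.8 and 132 CPM in SD mCherry, 337, 635 and 604 in HFD mCherry, 369, 490.2 and 839 in HFD Tert, and 357, 694 and 616 in HFD TertCi. Here too the diets did not overlap, with a log2 fold change of 1.65 ± 0.38 (SE) in HFD mCherry against SD mCherry (edgeR adjusted p = 0.0727, and 0.00614 with the epithelial covariate). The highest level per length among the 35 belonged to Cldn5, a claudin of endothelial tight junctions, with 242, 268 and 140.0 CPM in SD mCherry, 663, 1148 and 870.2 in HFD mCherry, 413, 1036 and 1744 in HFD Tert, and 936, 1635 and 852 in HFD TertCi. Its lowest high-fat value, in HFD Tert 25, was still above the highest on standard diet, and its diet log2 fold change was 2.04 ± 0.50 (SE) (edgeR adjusted p = 0.0738, and 0.0104 with the covariate). Esam, an immunoglobulin-family molecule of tight junctions, was at 92.2, 154 and 108 CPM in SD mCherry, 122, 249.6 and 228 in HFD mCherry, 216, 361 and 589 in HFD Tert, and 227, 644 and 285 in HFD TertCi. HFD mCherry overlapped SD mCherry in Esam (log2 fold change 0.76 ± 0.47 (SE)), and only the Tert and TertCi libraries were all above the standard diet range. Emcn, the sialomucin endomucin of venous and capillary endothelium, was at 31.8, 56.5 and 78.8 CPM in SD mCherry, 34.3, 67.3 and 52.1 in HFD mCherry, 101, 129 and 215 in HFD Tert, and 92.2, 302 and 116 in HFD TertCi. For Emcn the HFD mCherry libraries lay within the SD mCherry range, and all 6 Tert and TertCi libraries were above all 6 mCherry libraries.

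**Figure D2:**
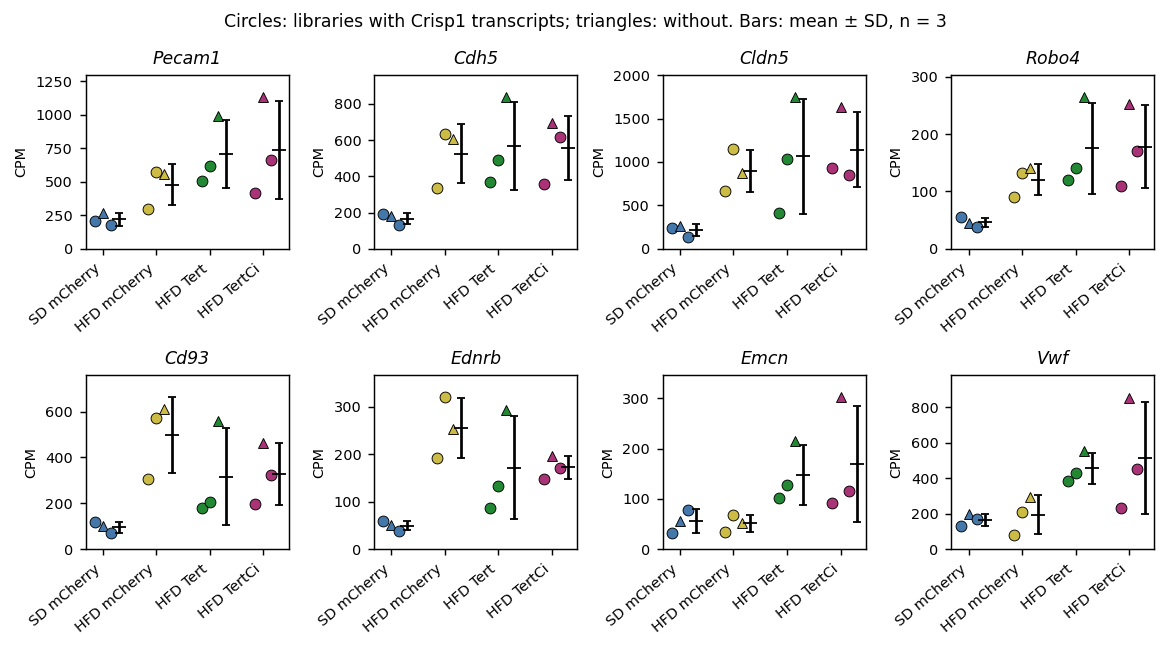
CPM of 8 endothelial genes in each library (points, by group on the horizontal axis), with the group mean and SD (bars, n = 3); circles are libraries with Crisp1 transcripts and triangles those without. Pecam1, Cdh5, Cldn5, Robo4, Cd93 and Ednrb separate standard from high-fat diet, whereas for Emcn the mCherry groups overlap and the Tert and TertCi groups lie above both.

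The receptor kinases and their phosphatase had diet log2 fold changes below the median of the set. Tie1, an orphan receptor that modulates the angiopoietin receptor Tek, had 96.7, 97.3 and 86.8 CPM in SD mCherry, 124, 231 and 226 in HFD mCherry, 181, 224 and 393 in HFD Tert, and 162, 379.6 and 290.3 in HFD TertCi. The diets did not overlap, and the diet log2 fold change was 1.05 ± 0.38 (SE) (edgeR adjusted p = 0.143). Tek itself had mean levels of 41.2 ± 11.2 (SD, n = 3) CPM in SD mCherry, of 84.2 ± 35.2 CPM in HFD mCherry, and of 97.3 ± 41.6 and 85.7 ± 37.5 CPM with Tert and with TertCi. Ptprb, the phosphatase that acts on Tek and VE-cadherin, had 135 ± 43.6, 246 ± 87.1, 366 ± 131 and 359 ± 161 CPM in the same order. For both, SD mCherry overlapped HFD mCherry. Eng, endoglin, a co-receptor for BMP and TGF-beta ligands, was at 137, 177 and 129.6 CPM in SD mCherry, 161, 342 and 363 in HFD mCherry, 300.1, 298 and 451 in HFD Tert, and 219, 557 and 374 in HFD TertCi. The HFD mCherry range of Eng began inside that of SD mCherry, at HFD mCherry 15.

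Among the G protein-coupled receptors the diet differences ranged widely. Ednrb, the endothelin receptor that clears endothelin and couples to nitric oxide release, was at 59.1, 50.9 and 39.4 CPM in SD mCherry, 192, 319.9 and 253 in HFD mCherry, 87.4, 133 and 294 in HFD Tert, and 148, 197 and 171 in HFD TertCi. The lowest HFD mCherry library had more than the highest SD mCherry library, and HFD Tert 25 and 26 and HFD TertCi 30 and 33 lay between the mCherry groups (diet adjusted p = 0.00257 with the covariate in edgeR). Adgrf5, an adhesion receptor of capillary endothelium, was at 179.5, 157 and 112 CPM in SD mCherry, 307, 560.4 and 595 in HFD mCherry, 321, 420.1 and 857 in HFD Tert, and 322, 687 and 512 in HFD TertCi. High-fat diet libraries did not overlap with standard diet (log2 fold change 1.70 ± 0.43 (SE), edgeR adjusted p = 0.0757). Calcrl, which with Ramp2 forms the adrenomedullin receptor, was at 60.4, 55.5 and 114 CPM in SD mCherry, 45.2, 106 and 90.1 in HFD mCherry, 118, 131 and 171 in HFD Tert, and 85.5, 159.7 and 111 in HFD TertCi. In Calcrl the mCherry groups overlapped (log2 fold change 0.067 ± 0.38 (SE)), and its sign turned with the covariate and with scaling by library size only. Its partner Ramp2 had mean levels of 37.2 ± 13.3 (SD, n = 3), 60.6 ± 22.1, 105 ± 58.5 and 103 ± 47.2 CPM in the order of groups above. Ramp2 shares 33.4% of its annotated exon bases with the neighbouring gene Vps25, so reads there could not be assigned to Ramp2 alone. S1pr1, the sphingosine 1-phosphate receptor that steadies junctions, had 82.6 ± 9.53, 199 ± 62.9, 231 ± 83.3 and 205 ± 73.2 CPM. Adgrl4 had 39.7 ± 5.27, 94.5 ± 23.3, 119.8 ± 59.3 and 106 ± 36.9 CPM. In both, no HFD mCherry library reached into the SD mCherry range, and both rose with diet in the fit with the covariate (adjusted p = 0.00671 and 0.0318).

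Apelin is a peptide ligand that guides vessel growth through its receptor Aplnr. Apln was at 5.14, 6.55 and 1.45 CPM in SD mCherry, 5.03, 11.5 and 16.4 in HFD mCherry, 9.57, 14.6 and 32.8 in HFD Tert, and 9.18, 19.3 and 15.99 in HFD TertCi, and Aplnr averaged 14.3 ± 3.47 (SD, n = 3), 31.2 ± 10.1, 31.8 ± 14.99 and 29.1 ± 10.7 CPM. HFD mCherry 15 lay inside the standard diet range of Apln, whereas in Aplnr the mCherry groups did not overlap. Neither passed the test with or without the covariate in the diet comparison (adjusted p = 0.166 and 0.0709 with it in edgeR).

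All 4 transcription factors separated the mCherry groups (13.9% of all genes were higher without overlap). Sox18, of the SoxF family that acts in arterial and lymphatic specification, was at 14.7, 21.2 and 20.4 CPM in SD mCherry, 38.2, 49.3 and 49.6 in HFD mCherry, 36.7, 41.3 and 65.99 in HFD Tert, and 41.2, 51.1 and 43.5 in HFD TertCi. The diets did not overlap, and the diet log2 fold change of Sox18 was 1.28 ± 0.25 (SE) with the smallest SE of the 35 genes (edgeR adjusted p = 0.0659, and 0.00489 with the covariate). Erg, the ETS factor that maintains endothelial gene expression, was at 40.6, 42.7 and 40.7 CPM in SD mCherry, 52.9, 99.5 and 110.5 in HFD mCherry, 84.6, 80.6 and 134 in HFD Tert, and 51.2, 158 and 97.8 in HFD TertCi. Its SD mCherry libraries differed little, and the lowest high-fat value, in HFD TertCi 30, exceeded them. Sox7 averaged 42.99 ± 9.53 (SD, n = 3), 131 ± 43.6, 135 ± 63.7 and 131 ± 43.8 CPM and rose with diet in the fit with the covariate (adjusted p = 0.00307). Sox17 averaged 26.3 ± 5.13, 50.5 ± 7.12, 62.1 ± 33.5 and 56.02 ± 9.72 CPM and did not pass that test (adjusted p = 0.0932).

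Secreted and matrix proteins divided. Vwf, the von Willebrand factor stored in Weibel-Palade bodies, was at 131, 198 and 170.3 CPM in SD mCherry, 79.7, 207 and 296 in HFD mCherry, 387, 426 and 555 in HFD Tert, and 232, 853 and 453 in HFD TertCi. HFD mCherry spanned the whole SD mCherry range and beyond on both sides, and its diet log2 fold change of 0.22 ± 0.50 (SE) became -0.28 ± 0.31 (SE) with the covariate. Egfl7, a secreted vascular protein whose gene hosts miR-126, was at 56.4, 66.04 and 61.8 CPM in SD mCherry, 72.3, 101 and 83.2 in HFD mCherry, 99.2, 157 and 247 in HFD Tert, and 131, 252 and 124 in HFD TertCi. The mCherry groups did not overlap in Egfl7, but the diet difference was small (log2 fold change 0.48 ± 0.35 (SE)). Mmrn2, a matrix protein that binds the lectins Cd93 and Clec14a, averaged 68.8 ± 15.4 (SD, n = 3), 161 ± 60.4, 167 ± 50.3 and 167 ± 69.96 CPM. Its diet difference passed with the covariate (adjusted p = 0.0457). Vwf is also made by megakaryocytes. The 7 platelet markers, 6 of them tested, summed to 75.1 to 126 CPM in SD mCherry and 125 to 225 in HFD mCherry, against 131 to 197 with Tert and 128 to 191 with TertCi, and Gp6 was at 0 in 10 of the 12 libraries.

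The 2 partners of Mmrn2 had the highest and the lowest diet log2 fold change of the 35 genes. Cd93 was at 118, 101 and 70.6 CPM in SD mCherry, 306, 572 and 609.8 in HFD mCherry, 181, 205 and 560.0 in HFD Tert, and 196, 465 and 324 in HFD TertCi. Every HFD mCherry library had more Cd93 than any SD mCherry library, and HFD Tert 25 and 26 and HFD TertCi 30 stood between the 2 groups (diet adjusted p = 0.00252 with the covariate in edgeR). Clec14a was at 15.2, 19.7 and 10.4 CPM in SD mCherry, 8.95, 10.6 and 10.1 in HFD mCherry, 18.4, 11.96 and 18.7 in HFD Tert, and 7.70, 25.05 and 11.6 in HFD TertCi. In Clec14a the HFD mCherry libraries lay at the low end of SD mCherry, and the groups overlapped (edgeR adjusted p = 0.37).

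Robo4, a guidance receptor that stabilises vessels, and Rasip1, a Ras- and Rap-binding protein needed for lumen formation, both separated the mCherry groups. Robo4 was at 55.04, 45.6 and 39.04 CPM in SD mCherry, 89.6, 132 and 141 in HFD mCherry, 119, 141 and 265 in HFD Tert, and 109, 253 and 171 in HFD TertCi, with no overlap between diets (log2 fold change 1.37 ± 0.37 (SE), edgeR adjusted p = 0.0848, and 0.0131 with the covariate). Rasip1 was at 98.2, 148 and 182 CPM in SD mCherry, 224, 467 and 403 in HFD mCherry, 346, 494 and 995 in HFD Tert, and 436, 1294 and 502 in HFD TertCi. Its log2 fold change in HFD mCherry against SD mCherry was 1.35 ± 0.52 (SE), and 20.4% of its exon bases lie in Izumo1, so its level is uncertain. Plvap, which forms the diaphragms of fenestrae and caveolae, was at 176, 338 and 242 CPM in SD mCherry, 173, 470.1 and 529 in HFD mCherry, 571, 472 and 790.3 in HFD Tert, and 322, 1001 and 566 in HFD TertCi. Plvap overlapped between the mCherry groups (log2 fold change 0.63 ± 0.49 (SE)), with HFD mCherry 15 below all 3 SD mCherry libraries. Cd300lg, a glycoprotein of capillary lumens, averaged 38.6 ± 19.8 (SD, n = 3), 143 ± 35.1, 131 ± 85.3 and 117 ± 11.8 CPM and rose with diet in the fit with the covariate (adjusted p = 0.0416).

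Nos3, the endothelial nitric oxide synthase, was at 37.8, 58.4 and 36.7 CPM in SD mCherry, 60.8, 102 and 106 in HFD mCherry, 118, 122 and 224 in HFD Tert, and 88.5, 272 and 132 in HFD TertCi. Its diet log2 fold change was 1.01 ± 0.43 (SE) (edgeR adjusted p = 0.187), and 7.12% of its exon bases overlap Atg9b on the other strand. The level of Tmem100, a target of BMP signalling through Alk1, was 18.8, 28.9 and 9.96 CPM in SD mCherry, 21.9, 37.3 and 32.4 in HFD mCherry, 19.3, 21.4 and 28.5 in HFD Tert, and 13.3, 27.9 and 23.4 in HFD TertCi. All 4 groups overlapped in Tmem100 (diet log2 fold change 0.67 ± 0.40 (SE)). Of the remaining genes, Myct1 averaged 21.3 ± 5.84 (SD, n = 3), 41.7 ± 10.9, 64.5 ± 32.00 and 76.9 ± 40.9 CPM. She averaged 17.2 ± 6.21, 51.00 ± 14.1, 43.3 ± 13.5 and 43.5 ± 15.99 CPM. Cyyr1 averaged 9.89 ± 2.39, 27.6 ± 11.7, 19.1 ± 7.87 and 20.8 ± 10.5 CPM. All 3 separated the mCherry groups (13.9% of all genes were higher without overlap), and of them She passed the diet test with the covariate (adjusted p = 0.0136).

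The next question was whether Tert or TertCi changed the endothelial genes on high-fat diet. Against HFD mCherry, the median log2 fold change of the 35 genes was 0.30 in HFD Tert (−0.05 over all genes) and 0.35 in HFD TertCi (−0.04). Both comparisons share the HFD mCherry libraries. The value was above 0 for 29 genes with Tert (46.2% of all genes) and for 27 with TertCi (47.4%). The highest were Emcn (log2 fold change 1.53 ± 0.51 (SE) with Tert and 1.73 ± 0.51 (SE) with TertCi), Vwf (1.23 ± 0.51 (SE) and 1.40 ± 0.51 (SE)), Egfl7 (0.97 ± 0.35 (SE) and 0.98 ± 0.35 (SE)), Esam (0.96 ± 0.47 (SE) and 0.95 ± 0.47 (SE)) and, with TertCi, Rasip1 (1.03 ± 0.51 (SE)). The lowest were Cd93 (-0.65 ± 0.48 (SE) and -0.59 ± 0.48 (SE)) and Ednrb (-0.57 ± 0.39 (SE) and -0.57 ± 0.39 (SE)). In edgeR 0 of the 35 passed with Tert (0% of all genes) and 0 with TertCi (0.012%), the smallest adjusted p-values being 0.224 and 0.210. At an unadjusted p-value under 0.05, 3 genes were higher with Tert (6.62% of all genes) and 3 with TertCi (5.76%), shares close to those of all genes. All Tert libraries lay above all HFD mCherry libraries for 5 genes (9.99% of all genes; Calcrl, Clec14a, Emcn, Nos3 and Vwf) and below them for 0 (11.1%). With TertCi they lay above for 2 genes (9.45%; Egfl7 and Emcn) and below for 0 (12%).

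With the epithelial covariate, Vwf rose with Tert (adjusted p = 0.0273; 1 of 35 genes, against 1.2% of all genes higher). Emcn, Vwf and Nos3 rose with TertCi (adjusted p = 0.0437, 0.0238 and 0.0474 in edgeR; 3 of 35, against 0.886%). DESeq2 called 0 with Tert (1.44% of all genes higher) and Emcn alone with TertCi (adjusted p = 0.0327; 0.891%). Limma-voom called 0 in both (4 genes higher with Tert and 3 with TertCi at an unadjusted p-value under 0.05, against 5.38% and 4.79% of all genes). The set medians rested on the libraries without Crisp1. Without HFD Tert 27 the Tert median was −0.078, and without HFD TertCi 31 the TertCi median was 0.00086. Between the libraries without Crisp1 alone they were 0.67 and 0.51, and among those with Crisp1 0.12 and 0.016. Emcn held its direction without those libraries, at 1.17 for Tert and 1.02 for TertCi.

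**Figure D3:**
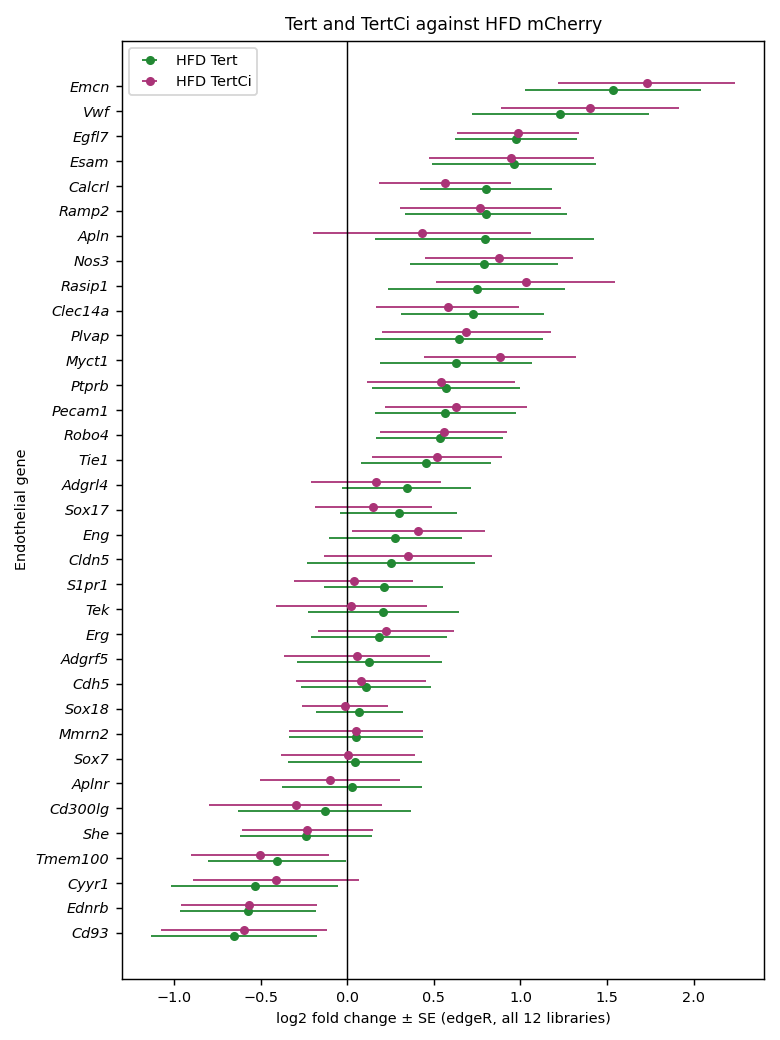
Log2 fold change (horizontal axis, edgeR, points with SE bars) of the 35 genes in HFD Tert (green) and HFD TertCi (purple) against HFD mCherry, ordered by the Tert value. Emcn and Vwf stand at the top in both, Cd93 and Ednrb at the bottom, and the SE bars of the genes in the lower middle, such as Cdh5 and Sox18, cross 0.

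Markers of other cell types differed in level here too, with 1 adipose progenitor marker called by edgeR with TertCi. All 10 macrophage markers were below 0 with Tert and with TertCi (medians −1.77 and −1.92), summing to 929 to 2481 and 1172 to 1745 CPM against 2417 to 6020.0 CPM in HFD mCherry. Of 9 adipose progenitor markers 1 was above 0 with each (medians −0.93 and −1.22). Of 6 mesothelial markers 5 were above 0 with each (medians 2.25 and 1.47; 651 to 1625 and 634 to 877 CPM, against 281 to 323 CPM). Of 7 adipocyte markers 6 were above 0 with each (medians 1.40 and 0.94), and of 5 Schwann and nerve markers 5 with Tert and 4 with TertCi (medians 1.65 and 1.15). Of 10 pericyte and smooth muscle markers 6 were above 0 with each (medians 1.27 and 0.91; 3006 to 19227 and 4130.2 to 12200.4 CPM, against 1933 to 3141 CPM). Of 6 erythrocyte markers 6 were above 0 with Tert and 5 with TertCi (medians 1.32 and 0.82; 2579 to 21274 and 3252 to 13231 CPM, against 3221 to 6751 CPM), and of 4 skeletal muscle markers tested 4 and 2 (medians 1.78 and 1.35). The part of these cell types in the endothelial values was not tested.

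HFD Tert and HFD TertCi were compared directly to ask whether catalytic activity mattered. The median log2 fold change of the 35 genes was 0.00017, with 18 above 0 (48.2% of all genes) and values from −0.28 to 0.36. In edgeR 0 of the 35 passed (0% of all genes), 0 passed at an unadjusted p-value under 0.05 in the higher direction (0.766%) or the lower (0.592%), and DESeq2 and limma-voom also gave 0 (0.0146% of all genes higher in DESeq2, and 0.455% at an unadjusted p-value under 0.05 in limma-voom). No gene of the 35 separated the groups (2.55% of all genes higher, 2.58% lower). With a median SE of 0.41, differences of this size were not detectable with 3 libraries a group.

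Against SD mCherry, where diet and cassette differ together, the values were larger. The median log2 fold change was 1.48 in HFD Tert (−0.06 over all genes) and 1.47 in HFD TertCi (−0.08), with 35 and 34 of the 35 genes above 0 (45.9% and 44.3% of all genes). All libraries of HFD Tert lay above all of SD mCherry for 31 genes (11.3% of all genes), and those of HFD TertCi for 28 (10.3%). Cldn5 had the highest values (2.30 ± 0.51 (SE) with Tert and 2.40 ± 0.51 (SE) with TertCi), and Rasip1 was the third with Tert (2.10 ± 0.53 (SE)) and the second with TertCi (2.38 ± 0.54 (SE)). Clec14a had the lowest (0.11 ± 0.41 (SE) and -0.034 ± 0.41 (SE)). In edgeR 0 passed in both (0% of all genes), with smallest adjusted p-values of 0.169 and 0.243. At an unadjusted p-value under 0.05, 32 genes were higher with Tert (6.96% of all genes) and 31 with TertCi (6.77%). With the epithelial covariate 11 rose with Tert (0.407%) and 19 with TertCi (1.01%), among them Cdh5, Cldn5, Pecam1, Nos3 and Tie1 in both. DESeq2 called 24 (1.37%) and 21 (1.25%) as higher, and limma-voom called 0 (32 and 29 higher at an unadjusted p-value under 0.05, against 6.19% and 6.04%).

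**Figure D4:**
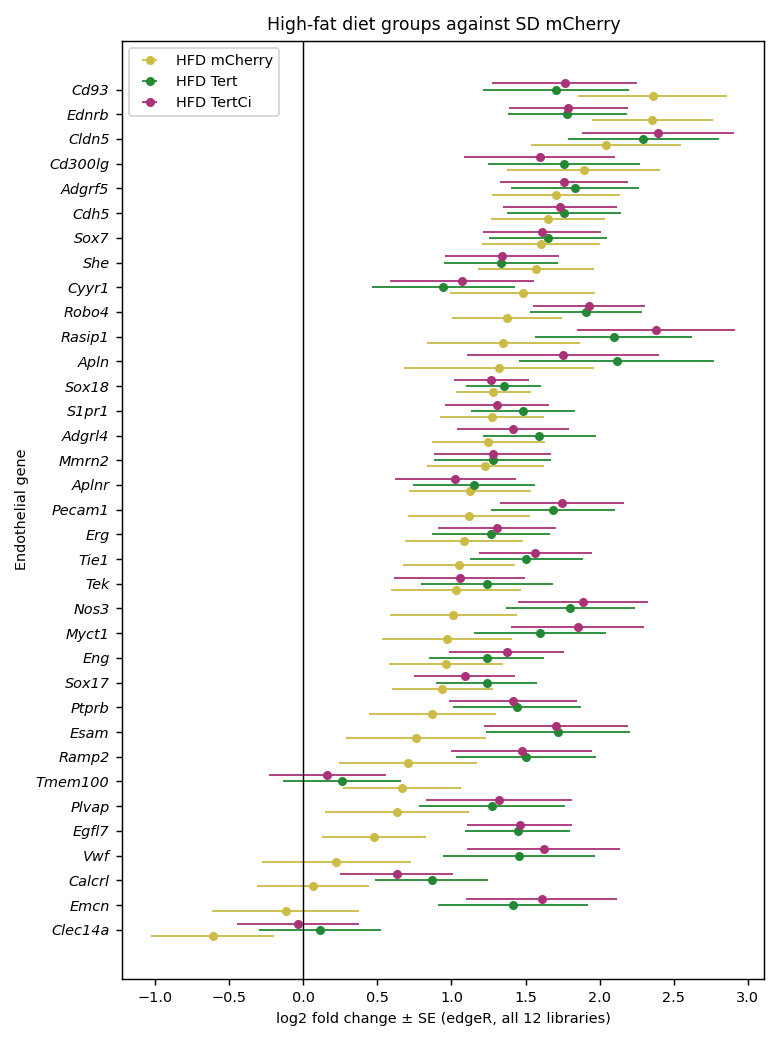
Log2 fold change (horizontal axis, edgeR, points with SE bars) of the 35 genes in HFD mCherry (yellow), HFD Tert (green) and HFD TertCi (purple) against SD mCherry, ordered by the HFD mCherry value. At the top the 3 groups lie together or HFD mCherry leads (Cd93, Ednrb), and towards the bottom HFD Tert and HFD TertCi lie well to the right of HFD mCherry (Vwf, Emcn, Egfl7).

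Over the 4 groups at once, 0 of the 35 passed in edgeR (0.012% of all genes), 28 had an unadjusted p-value under 0.05 (20.2%), and 24 passed with the covariate (7.22%). DESeq2's likelihood ratio test passed 21 (10.8%).

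The make-up of the endothelial set was then described by each gene's log2 level minus the median of the 35 in the same library, a scale on which a common shift of all endothelial transcripts cancels. It was chosen after the values were seen and is a description with no test. In HFD mCherry 7 genes stood apart from all 9 other libraries, 4 above them (2.34% of all genes on the same scale) and 3 below (0.628%). Cd93 had relative levels of 1.94, 2.11 and 2.12 in HFD mCherry and 0.65 to 1.32 elsewhere. Ednrb had 1.27, 1.27 and 0.85 in HFD mCherry and −0.22 to 0.68 elsewhere. These were the widest gaps upward, and Sox7 and She stood above the other libraries by small margins. Emcn had -1.21, -0.97 and -1.43 in HFD mCherry and −0.83 to 0.95 elsewhere. Egfl7 had -0.14, -0.39 and -0.76 in HFD mCherry and −0.087 to 0.60 elsewhere. Vwf reached at most 1.07 in HFD mCherry and ran from 1.22 to 2.06 elsewhere. For Cd93, Ednrb, Emcn, Vwf and Egfl7, the group means of SD mCherry, HFD Tert and HFD TertCi lay closer to one another than any did to HFD mCherry. The relative means of Emcn were 0.051, -0.027 and 0.071 in those groups and -1.21 in HFD mCherry, and those of Cd93 were 0.91, 0.94, 1.14 and 2.06. Other genes kept a nearly constant place: Tie1 averaged 0.89, 0.71, 0.81 and 0.89 in the order of groups above, and Pecam1 2.10, 2.01, 2.24 and 2.27. The group means of Clec14a and Tmem100 were highest on standard diet, with Clec14a at -1.77 in SD mCherry and -3.52, -3.16 and -3.41 in the high-fat groups, and Tmem100 at -1.51 and -1.93, -2.66 and -2.77. Macrophage markers averaged 5.87, 7.91, 6.03 and 6.17 log2 CPM in the order of groups above, so they too were highest in HFD mCherry. Adipose progenitor markers also had their highest group mean there. Transcripts from such cells would not cancel on this scale, and their part in the values of Cd93 and the other genes was not tested.

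**Figure D5:**
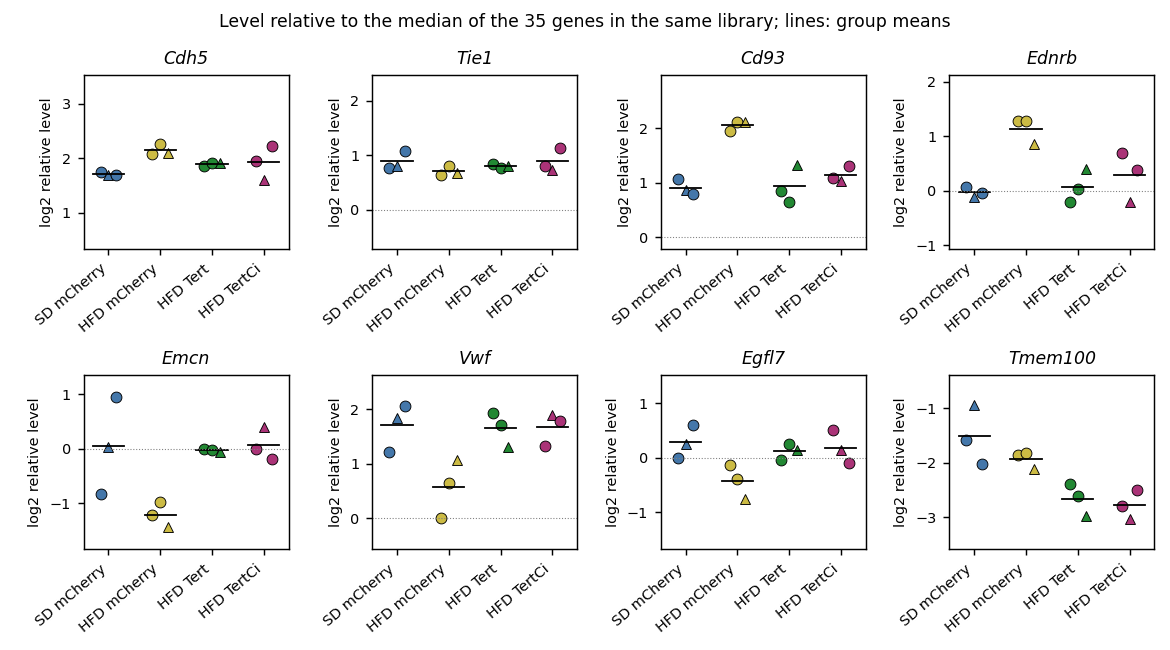
Log2 level of 8 genes relative to the median of the 35 endothelial genes in the same library (points by group; circles with and triangles without Crisp1 transcripts; lines are group means). Cd93 and Ednrb stand high and Emcn, Vwf and Egfl7 low in HFD mCherry, Tie1 keeps a similar place in all groups, and the group means of Tmem100 are lower on high-fat diet.

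Per kilobase of annotated exon, a scale on which genes can be compared, Cldn5 was the most abundant of the 35 (mean over groups 585 CPM per kb), before Plvap (237) and Rasip1 (145, with the overlap named above). Cdh5 (108), Esam (95.2), Pecam1 (85.9) and Eng (72.2) followed. The lowest were Apln (3.90), Clec14a (3.07) and Cyyr1 (2.17).

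The genes differed in how closely they followed the median of the other genes of the set over the 12 libraries, which share depth and scaling. Pearson's r was 0.987 for Pecam1, 0.986 for Robo4 and 0.984 for Tie1, and it was lowest for Emcn (0.681), Calcrl (0.650), Tmem100 (0.579) and Clec14a (0.279). Each gene was left out of the median it was set against. Outside the set, the 10 genes most like that median (of those averaging 1 CPM or more) were Pik3r6 (r = 0.992), Adcy4 (0.989), Nrarp (0.986), Rell1 (0.984), Epas1 (0.980), Scarf1 (0.980), Gngt2 (0.979), Tmem173 (0.978), Arhgap29 (0.978) and Arhgef7 (0.978). Among them Nrarp is a Notch feedback regulator and Epas1 the hypoxia-inducible factor HIF-2alpha. Pik3r6 averaged 3.34 CPM in SD mCherry and 12.9 CPM in HFD mCherry, and 18.5 and 19.1 CPM with Tert and TertCi.

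Further endothelial genes were followed in 7 lists, none of whose tested members passed in edgeR in any comparison. Of 14 endothelial regulators, 10 lay above 0 with diet (45.9% of all genes did; median log2 fold change 0.61) and 2 rose with the covariate (6.82% of all genes). Among them Ets1, an ETS factor shared with lymphocytes, averaged 171 ± 21.1 (SD, n = 3) CPM in SD mCherry and 608 ± 238 CPM in HFD mCherry (adjusted p = 0.006 with the covariate in edgeR). Bcl6b, a transcriptional repressor, averaged 47.3 ± 4.86 and 153 ± 50.3 CPM (adjusted p = 0.00977). All 10 capillary genes lay above 0 with diet (median 1.33). The VEGF receptor Flt1 was at 58.8, 50.5 and 51.8 CPM in SD mCherry, 118, 182 and 199 in HFD mCherry, 104, 118 and 197 in HFD Tert, and 94.8, 205 and 157 in HFD TertCi, with no overlap between the mCherry groups (adjusted p = 0.00422 with the covariate in edgeR). Gpihbp1, which carries lipoprotein lipase to the capillary lumen, was at 43.5, 49.5 and 35.6 CPM in SD mCherry, 83.4, 151 and 114 in HFD mCherry, 78.4, 224 and 367 in HFD Tert, and 175, 269 and 137 in HFD TertCi, and did not pass (adjusted p = 0.0571 with the covariate).

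The arterial list had a diet median of 0.079 with 5 of 8 genes above 0. The Notch ligand Dll4 separated the mCherry groups (33.2 ± 5.16 (SD, n = 3) and 87.97 ± 6.25 CPM), whereas the connexin Gja5 did not (10.1 ± 3.58 and 16.4 ± 5.30 CPM) and averaged 34.8 ± 17.4 CPM in HFD Tert and 31.8 ± 16.1 CPM in HFD TertCi. Gja5 rose with Tert in the fit with the covariate (adjusted p = 0.0376 in edgeR, and 0.0529 with TertCi). In the venous and activated list, 6 of 8 lay above 0 with diet (median 0.88) and all 8 with Tert and with TertCi (medians 0.55 and 0.69). Nr2f2, the venous identity factor COUP-TFII that stromal and mesothelial cells also express, was at 80.5, 82.6 and 141 CPM in SD mCherry, 42.8, 38.9 and 38.2 in HFD mCherry, 105, 133 and 67.6 in HFD Tert, and 89.7, 78.03 and 82.8 in HFD TertCi. Every HFD mCherry library lay below every other library. It fell with diet and rose with Tert and TertCi in the fit with the covariate (adjusted p = 0.0119, 0.0141 and 0.0342 in edgeR). The summed level of the mesothelial markers given above was also lowest in HFD mCherry. By their mean log2 CPM, SD mCherry 3 (4.60) lay below the HFD mCherry libraries (5.05, 5.16 and 5.12). The part of mesothelial cells in Nr2f2 was not tested. Icam1, an adhesion molecule of activated endothelium and of many other cells, averaged 835 ± 151, 2309 ± 1038, 2499 ± 739.6 and 2952 ± 1509.5 CPM in the order of groups above.

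Of 6 tip cell genes all lay above 0 with diet (median 1.18). Esm1, endocan, was at 10.7, 22.6 and 14.9 CPM in SD mCherry, 12.8, 21.2 and 25.1 in HFD mCherry, 33.4, 58.6 and 77.4 in HFD Tert, and 25.9, 137 and 53.3 in HFD TertCi. It overlapped between the mCherry groups and lay above HFD mCherry in every Tert and TertCi library, rising with the covariate (adjusted p = 0.0435 and 0.0285 in edgeR). Nid2, a basement membrane protein, rose with diet in that fit (adjusted p = 0.0385). The lymphatic list had a diet median of −0.28 with 3 of 7 genes above 0. Its Pdpn, which fibroblasts and macrophages also express, averaged 80.6 ± 19.7 CPM in SD mCherry and 318 ± 155 in HFD mCherry (adjusted p = 0.00482 with the covariate in edgeR), and Reln averaged 31.4 ± 10.1 and 19.6 ± 6.37 CPM, with overlap. Of 18 ligands and partners of the 35 genes 17 were tested, with a diet median of −0.39 and 5 above 0. Ece1, the endothelin-converting enzyme, averaged 154 ± 24.3 CPM in SD mCherry and 356 ± 149 in HFD mCherry, and rose with the covariate (adjusted p = 0.0424 in edgeR). Cav1, the caveolar coat protein that binds Nos3 and is abundant in adipocytes and stroma, was at 563, 517 and 895 CPM in SD mCherry, 376, 625 and 558 in HFD mCherry, 873, 1301 and 1023 in HFD Tert, and 744, 849.7 and 875 in HFD TertCi. HFD mCherry and SD mCherry overlapped in Cav1, and the Tert and TertCi libraries lay above HFD mCherry (adjusted p = 0.195 and 0.321 in edgeR).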

How the data were processed

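Raw counts were deposited for each of the 12 libraries, as whole numbers against gene symbols, per the file headers. Polyadenylated RNA was captured on poly-T beads and cDNA primed by random hexamers, per the labels' protocols. The submitters' processing notes name Subread, SAMtools and featureCounts 1.6.4 and build mm10. Aligner settings, annotation and use of strand are not given in the sources used here, so overlapping genes may share reads. Every table line carried a gene name (0 without).

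Counts were used as deposited. Genes were kept by filterByExpr, scaled by TMM factors (0.854 to 1.15) and fitted in 1 quasi-likelihood model over the 12 libraries with no covariate in edgeR 4.0.16 (R 4.3.3; common biological coefficient of variation 0.536, 8 residual degrees of freedom). P-values were adjusted by Benjamini-Hochberg over all 16713 genes in each comparison, with calls under 0.05. CPM refers to the TMM-scaled library size; log2 CPM has a prior count of 2. No 2 replicates agreed within sampling noise (chi-square divided by its degrees of freedom at least 20.0). Exon lengths and overlaps came from GENCODE M21 (GRCm38), promoters from RefSeq (GRCm38.p6). The epithelial covariate is the mean log2 CPM of 9 tested genes of the 11 on its list.

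The 35 genes and all lists were chosen with earlier results of these data known. All 35 are accounted for, about 20 with values in every library; of other lists up to 2 genes with the smallest p over the groups are named. Other settings tried were DESeq2 1.42.0, limma-voom (limma 3.58.1), RLE factors, library size only, no filter, 2 groups only, epithelial and erythrocyte genes out of the library size, the covariate, and leaving out each library. The Crisp1 batch term and the fits within Crisp1 classes were chosen after seeing the data. The code was tested on simulated counts for HFD mCherry against SD mCherry, with 200 genes changed. At the dispersion of these data edgeR recovered 0 of the 200 at a log2 change of 1, and 66 (33%) at 2. At 0.1 times that dispersion it recovered 153 and 189. A count of 0 genes called therefore does not show that no gene differed.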

Additional observations from a re-analysis of the deposited data

How the results depend on the processing

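The median log2 fold change of the 35 genes moved by less than 0.511 in every comparison and alternative run. That is the pooled SD, between libraries of a group, of the median level of the 35. The medians against HFD mCherry, 0.30 for Tert and 0.35 for TertCi, were themselves smaller. For them this yardstick cannot show stability, because loss of the whole difference would stay within it. With diet the median log2 fold change ran from 0.93 to 1.37 over the leave-one-out fits. It was 0.87 with scaling by library size only, which shifts the median of all genes by −0.20. Leaving out 1 library gave −0.078 to 0.63 for Tert and 0.00086 to 0.54 for TertCi against HFD mCherry, −0.37 to 0.35 between them, and 1.11 to 1.72 and 1.09 to 1.70 against SD mCherry. The count of the 35 genes called by edgeR, 0 in each comparison, became with the epithelial covariate 14 (diet), 1 (Tert), 3 (TertCi), 11 (Tert against SD mCherry), 19 (TertCi against SD mCherry) and 24 (any difference among groups). With DESeq2 it became 14, 0, 1, 24, 21 and 21 in the same order. With the Crisp1 class as a batch term, added after seeing the data, it was 15 for diet (all higher, against 6.6% of all genes higher) and 5 for any difference among groups (1.68% of all genes). Without 1 library at a time it ran from 0 to 15 for diet, the highest without HFD mCherry 15 and 10 without HFD Tert 27. It ran from 0 to 4 for any difference (4 without HFD mCherry 15, against 3.81% of all genes, and 2 without HFD Tert 27, against 0.991%) and from 0 to 1 for Tert against SD mCherry (1 without SD mCherry 3, higher, against 0.211%). The cause of these shifts was not tested.

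The sign turned for genes near 0. With diet, Calcrl was −0.19 with the covariate, −0.16 with library size only and −0.22 among libraries with Crisp1, and Vwf was −0.28, −0.033 and −0.080. Clec14a was −0.017 with the covariate and −0.017 with library size only for Tert against SD mCherry, and −0.020 among libraries with Crisp1 for TertCi against HFD mCherry. Leaving out 1 library gave ranges across 0 with diet for Calcrl (−0.18 to 0.47), Vwf (−0.21 to 0.60) and Emcn (−0.40 to 0.22). For Clec14a they were −0.097 to 0.35 (Tert against SD mCherry), −0.64 to 0.28 (TertCi against SD mCherry) and −0.033 to 0.89 (TertCi against HFD mCherry), and for Tmem100 −0.048 to 0.68 and −0.15 to 0.58 against SD mCherry. Single genes were recomputed under 22 other settings for 79 of the 210 pairs of a gene and a comparison (all 35 genes with diet, 11 genes in each other comparison, and none for Tert against TertCi). Of these values 1608 kept direction and side of the threshold, 106 passed it newly and 24 turned sign. No paired analysis was possible because replicate numbers differ between all 4 groups. Depth limits precision most for Apln, which had as few as 25 counts in a library; the next lowest gene, Clec14a, had at least 151.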
